A study of Mus musculus with 4 samples.

Results

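Peaks of N6-methyladenosine (m6A) were examined in 10 genes for transcription factors of hematopoietic stem cells, namely Runx1, Gata2, Tal1, Lyl1, Lmo2, Erg, Fli1, Etv6, Myb and Meis1. The genes were grouped by this role, and a peak was given to a gene when its summit lay in an exon of that gene in the GENCODE M21 annotation, which holds 55413 genes, 21851 of them protein-coding. The series holds 4 samples of mouse foetal liver cells, 2 from m6A immunoprecipitation (IP) and 2 inputs, and the methods call the replicates biological. The cells were enriched for the receptor Kit with magnetic beads from Ythdf2CTL animals of the C57BL/6 background. Ythdf2CTL stands for Ythdf2 fl/fl without Cre, an allele in which exon 2 is flanked by loxP sites and the YTHDF2 protein is made as a fusion with GFP. All samples share this genotype, there is no second condition, and the foetal stage is not given in the sources used here. Peaks had been called in each IP replicate, 15635 in replicate 1 and 14872 in replicate 2, of which 12710 and 12204 had their summit in an exon.

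m6A is placed on messenger RNA by the METTL3/METTL14 writer complex, mainly at adenosines in the motif DRACH and often near stop codons, and the reader YTHDF2 recruits the deadenylation machinery to RNA that carries it. In m6A-seq, fragmented RNA is pulled down with an antibody against m6A, and a peak is a stretch where IP reads exceed the local background. IP samples are labelled as total RNA and inputs as polyA RNA, the methods do not settle which RNA was pulled down, and what this adds to the fold enrichment or to peaks in introns was not tested. A peak is read here as a sign of both RNA and methylation, and a gene without a peak is not shown to lack m6A. The 10 factors form the core of the stem cell network. Runx1 is required for blood stem cells to arise from endothelium. Gata2, Tal1 and Lmo2 can meet in a DNA-bound complex, Lyl1 is a paralogue of Tal1, and Erg, Fli1 and Etv6 belong to the Ets family. Myb is required for definitive blood formation in the foetal liver, and Meis1 is a homeobox protein that acts with Hox and Pbx proteins.

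Of the 10 genes, 9 had an exonic summit in both IP replicates, and Myb had none in either. The background was 30.9% of the 21851 protein-coding genes with an exonic summit in both replicates, 34.4% in replicate 1 and 33.5% in replicate 2. The members' transcripts, taken as those with the longest coding sequence, were between 1706 and 5861 nt long with a median of 3458.5 nt, against 2544 nt for all protein-coding genes. Among the 13108 protein-coding genes with a transcript length in that range the share was 36.2%. The 10 genes were chosen with earlier results of these data known, so that their count is a description beside these shares. The set carried 13 exonic peaks in replicate 1 and 16 in replicate 2, which fell on 16 sites, 13 found in both replicates and 3 in replicate 2 only. Runx1, Lmo2, Fli1 and Meis1, 4 of the 10 genes, had at least 2 exonic summits in each replicate, which held for 10.9% of protein-coding genes. No summit of the set lay in an exon of another gene. Because the samples are bulk RNA of a mixed cell population, fewer cells of a type and less RNA per cell cannot be told apart here.

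The sequence around the summits is shown first, since a peak is many times wider than the motif in which the methylated base lies. GGACH, which is GGAC and then any base but G and is the best known form of DRACH, was searched along the spliced transcripts in the sense direction. The copies nearest to the summits of the set and no more than 50 nt away numbered 12. Each is printed 5′ to 3′ from the GRCm38 reference with 12 bases on either side and the motif in capitals, so that the adenosine in the motif is the middle base.
Runx1, 5′ UTR: attttgcctccgGGACCgtttgtaatagc
Gata2, coding: tttagtcactctGGACAcatcctacccac
Tal1, 3′ UTR: aagcaggtcaatGGACTtatgtgaacttc
Lyl1, coding: cgtgcttcctggGGACTgtgatggcgacc
Lmo2, 3′ UTR: ttaggagattatGGACTcttcctgggcac
Erg, 3′ UTR: ctgtagagtgtgGGACCttgcttgaccta
Fli1, 3′ UTR, nearest in replicate 1: atcatgaatcatGGACTtgaccagggttg
Fli1, 3′ UTR, nearest in replicate 2: cttatcttcggaGGACTcaattcagtgga
Etv6, coding: acctgcccacggGGACCgcaggaggcgtg
Etv6, distal 3′ UTR: aggggtacagagGGACAccccagaaccct
Meis1, 5′ UTR: gattaggaattaGGACTgattcaaggaaa
Meis1, last coding bases: tgcacaagtcatGGACAttcacgctcagt
Of the 12 copies, 6 read GGACT, 3 GGACC and 3 GGACA. These windows lie on GRCm38 at chr16:92696063-92696091 on the minus strand for Runx1, chr6:88205387-88205415 on the plus strand for Gata2, chr4:115068806-115068834 on the plus strand for Tal1, chr8:84704217-84704245 on the plus strand for Lyl1 and chr2:103981200-103981228 on the plus strand for Lmo2. The Erg window is at chr16:95360454-95360482 and the Fli1 windows are at chr9:32423352-32423380 and chr9:32423278-32423306, all on the minus strand. The Etv6 windows are at chr6:134266395-134266423 and chr6:134269754-134269782 on the plus strand, and the Meis1 windows at chr11:19018735-19018763 and chr11:18881641-18881669 on the minus strand.

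Runx1 (chromosome 16, 92601466 to 92826149, minus strand), the Runt-domain factor, had the most summits of the set in replicate 2. At the end of the coding sequence in exon 8, the fold enrichment over the local background was 5.15 in replicate 1 and 7.40 in replicate 2 (mean 6.27 ± 1.59, SD, n = 2). At the summit lay 86 and 100 IP reads against 15.9 and 12.6 expected reads, the latter being the local background in units of IP reads. Read numbers given for a peak are those at its summit throughout, not those of the whole peak. The −log10 q, where q is the p-value of the peak caller adjusted over all positions, was 30.8 and 46.8. Its summits lay at -27 and -42 nt from the last base of the stop codon, where negative positions are on the 5′ side. This summit was in an exon of all 3 transcripts of the basic annotation. A second peak of like size lay toward the 5′ side of the gene. In the first exon shared by the transcripts Runx1-202 and Runx1-203, which begin inside the gene and lack the distal first exon of Runx1-201, the fold enrichment was 5.56 and 7.50 (mean 6.53 ± 1.37), on 92 IP reads in each replicate and a −log10 q of 35.5 and 43.4. These summits fell in the 5′ UTR, 39 and 41 nt from the 5′ end of Runx1-203. Of the 632 and 623 bp of these peaks, 374 and 338 lay in the first exon of Runx1-203. The rest lay 5′ of that transcript, and Runx1-202 begins further 5′. The GGACC printed above lay 10 and 8 nt downstream of the summits. Both Runx1 sites were thus higher in replicate 2. A further peak in the 5′ UTR of Runx1-202, 626 nt from its 5′ end, was called only in replicate 2, with a fold enrichment of 3.38, 38 IP reads and a −log10 q of 7.54, and no GGAC within 50 nt.

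Gata2, Tal1, Lyl1 and Lmo2 had peaks of low fold enrichment on high read numbers. Gata2 (chromosome 6, 88193891 to 88207032, plus strand), a zinc-finger factor that maintains stem cells, had a single peak with its summit in the coding part of the last exon, exon 6. The fold enrichment was 2.57 and 3.01 (mean 2.79 ± 0.309), with 114 and 116 IP reads against 43.7 and 37.8 expected, a −log10 q of 15.5 and 19.6, and summits at -104 and -105 nt. The exonic bases under this peak held 6 and 7 copies of GGACH. Tal1 (chromosome 4, 115056426 to 115071755, plus strand), a basic helix-loop-helix factor that binds E-boxes with E proteins, had the widest peak of the set, 1089 and 1058 bp, across the stop codon and into the 3′ UTR of exon 5. Its fold enrichment was 2.14 in each replicate (SD 0.00184) on 151 and 152 IP reads against 69.9 and 70.4 expected, with a −log10 q of 13.8 and 12.9 and summits 80 and 76 nt past the stop codon. The replicates of Tal1 were the closest of any site of the set.

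Lyl1 (chromosome 8, 84701457 to 84704715, plus strand), the paralogue of Tal1, had 1 exonic peak, in exon 4. The fold enrichment was 3.59 and 3.49 (mean 3.54 ± 0.0710) on 162 and 156 IP reads against 44.4 and 43.9 expected, the −log10 q was 37.8 and 33.0, and the summits lay at -32 and -38 nt. Tal1 and Lyl1 thus both carried m6A signal around the stop codon, with the higher fold enrichment at Lyl1 in each replicate. Lmo2 (chromosome 2, 103957986 to 103981878, plus strand), a LIM-only protein that bridges Tal1 and Gata factors without binding DNA, had a peak at each end of the coding sequence. At the start codon of Lmo2-202, in exon 1, the fold enrichment was 2.31 and 2.80 (mean 2.56 ± 0.353), with 102 and 108 IP reads and a −log10 q of 10.8 and 15.9. These summits lay 29 and 25 nt into the coding sequence of Lmo2-202 and were in an exon of 2 of the 4 annotated transcripts. In the 3′ UTR, 103 and 105 nt past the stop codon, the fold enrichment was 1.76 and 1.80 (mean 1.78 ± 0.0262) on 176 and 184 IP reads against 99.6 and 102 expected, with a −log10 q of 8.91 and 9.51. That site had the lowest fold enrichment of the set in each replicate and the most IP reads.

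Of the Ets genes, Erg and Fli1, closely related activators that are needed to maintain blood stem cells, were the stronger. Erg (chromosome 16, 95359169 to 95586593, minus strand) had a peak 987 and 965 bp wide over the last exon, exon 11. The fold enrichment was 8.11 and 6.46 (mean 7.28 ± 1.16), with 102 and 94 IP reads against 11.7 and 13.7 expected and a −log10 q of 53.9 and 39.2. The value of replicate 1 was the highest fold enrichment and the highest −log10 q of the set. The summits lay 282 and 301 nt past the stop codon, inside the 3′ UTR, while the peak itself began in the coding sequence. In replicate 2 alone, a peak of 200 bp stood 925 nt past the stop codon, with a fold enrichment of 3.67 on 53 IP reads and a −log10 q of 11.9. It lay in the long 3′ UTR that only 2 of the 8 Erg transcripts include.

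Fli1 (chromosome 9, 32422204 to 32542861, minus strand) had 2 sites in its last exon, exon 9. At the end of the coding sequence the fold enrichment was 4.70 and 6.17 (mean 5.43 ± 1.04), on 135 and 126 IP reads against 28.0 and 19.5 expected, with a −log10 q of 43.5 and 49.6. The summits were at -229 and -195 nt, 34 nt apart, which was the largest shift between replicates in the set. In the 3′ UTR, 447 and 448 nt past the stop codon, the fold enrichment was 4.23 and 3.12 (mean 3.67 ± 0.789) on 55 and 71 IP reads, with a −log10 q of 16.0 and 12.4. Fli1 thus had the higher value in replicate 2 at one site and in replicate 1 at the other. Etv6 (chromosome 6, 134035700 to 134270158, plus strand), an Ets repressor, had a weaker peak in the coding part of exon 8, with a fold enrichment of 3.14 and 2.73 (mean 2.93 ± 0.289), 120 and 128 IP reads against 37.6 and 46.2 expected, a −log10 q of 23.1 and 18.1 and summits at -54 and -32 nt. A second Etv6 peak was called in replicate 2 only, 3278 nt past the stop codon in a 3′ UTR of 3681 nt. It had a fold enrichment of 2.67, 72 IP reads and a −log10 q of 9.54.

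Meis1 (chromosome 11, 18879817 to 19018985, minus strand) had a peak at each end of its transcript. In the 5′ UTR of exon 1 the fold enrichment was 6.73 and 5.11 (mean 5.92 ± 1.15), but on 41 and 29 IP reads, the fewest of the sites found in both replicates, against 5.24 and 4.83 expected. The −log10 q there was 19.8 and 9.92. At the stop codon in exon 12 the fold enrichment was 4.21 and 5.40 (mean 4.80 ± 0.842) on 73 and 84 IP reads, with a −log10 q of 21.0 and 29.3 and summits at -9 and 13 nt. The exonic bases under the stop codon peak held 8 copies of GGACH in each replicate, the densest of the set, at 17.5 and 16.3 per kb. The 5′ UTR peak thus had the higher fold enrichment in replicate 1 and the stop codon peak in replicate 2, while the −log10 q was higher at the stop codon in each.

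Myb (chromosome 10, 21124935 to 21160984, minus strand) had no summit in any exon. Its transcript of 3693 nt in 16 exons holds 16 copies of GGAC, and at 4.33 per kb its density was close to the median of the set, 4.33 per kb. Relaxing the rule so that any part of a peak could touch an exon, or using all annotated transcripts, still gave Myb no peak. The nearest peak lay outside the gene, 449 and 531 nt upstream of its 5′ end, with a fold enrichment of 2.17 on 39 IP reads in replicate 1 and 4.02 on 37 in replicate 2. Whether Myb RNA was present is not measured by the peak lists. Within the genes but outside every annotated exon, 3 of the 10, Lyl1, Erg and Fli1, had an intronic peak that overlapped between replicates, as 2.53% of protein-coding genes did. The part of gene length in this count was not tested.

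**Figure D1:**
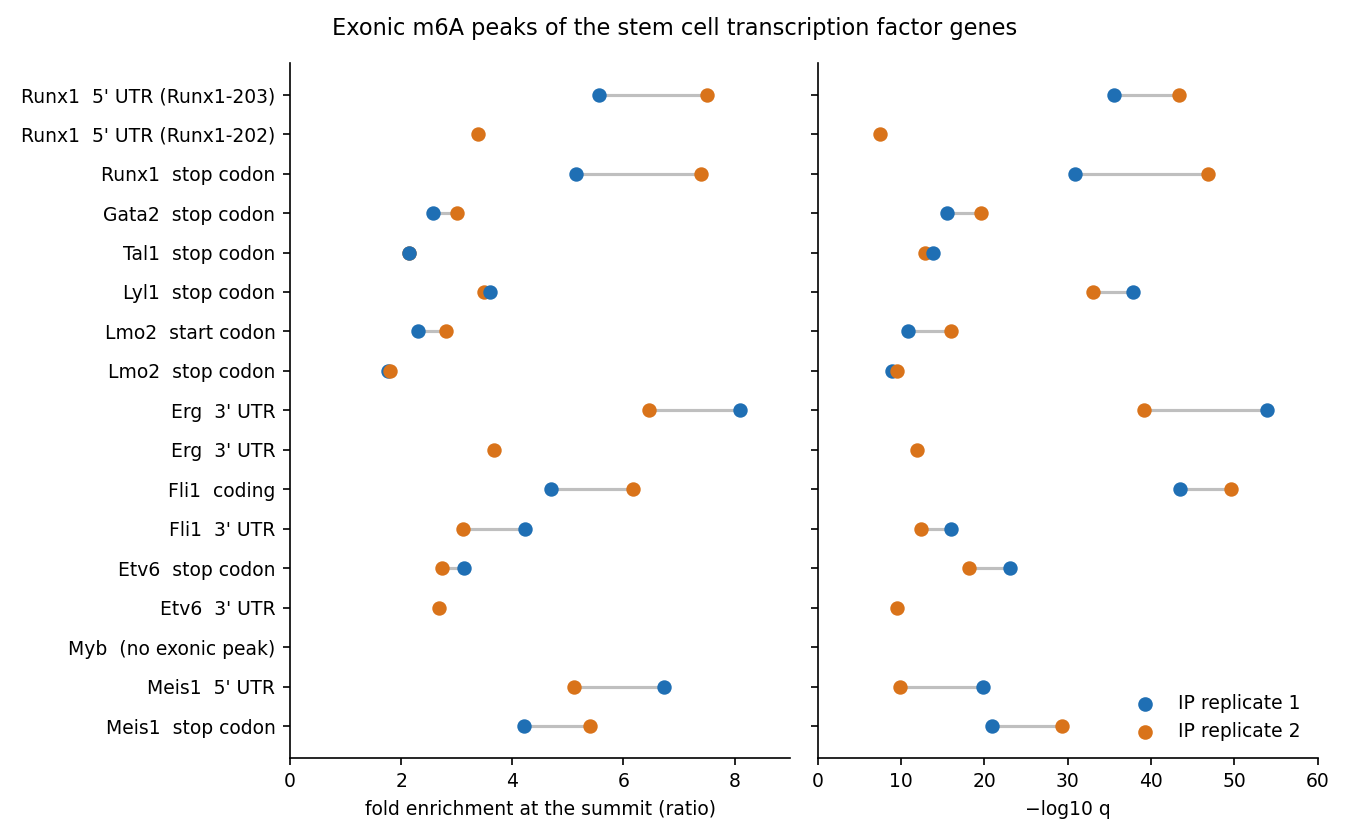
Fold enrichment at the summit (left, a ratio) and −log10 q (right) of every exonic peak of the set, with blue for IP replicate 1 and orange for IP replicate 2 and a grey line between replicates of a site. Erg reached 8.11 in replicate 1 and the Lmo2 stop codon site 1.76, 3 sites have an orange point alone, and Myb has no point.

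The fold enrichment of the set lay between 1.76 and 8.11 in replicate 1 and between 1.80 and 7.50 in replicate 2. The medians were 4.21 and 3.43, against 4.18 and 4.39 for all exonic peaks, so the set did not stand to one side in both replicates. The median −log10 q was 21.0 and 17.0, against 16.1 and 15.8 for all exonic peaks. The set had more IP reads at the summit, with medians of 102 and 97 against 68 and 66, and a higher local background, with medians of 28.0 and 20.8 expected reads against 14.9 and 13.7. How far this higher background bears on the number of genes with a peak was not tested.

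All 13 exonic peaks of the set in replicate 1 overlapped a peak of replicate 2 (exact Clopper-Pearson 95% interval 75.3% to 100%), as did 84.2% of all exonic peaks. In replicate 2, 13 of 16 overlapped a peak of replicate 1, or 81.2% (54.4% to 96.0%), against 86.8%. The intervals cover counting error only and include the values of all exonic peaks in each case. Summits of the same site were between 1 and 34 nt apart, and the median distance over 11524 pairs of peaks that overlapped one to one was 16 nt. Over those pairs, the log2 ratio of the fold enrichment in replicate 2 to that in replicate 1 had an SD of 0.47. Of the 13 sites of the set, 7 were higher in replicate 2, and only the Runx1 stop codon site, at 0.52, lay beyond 1 SD. With 2 replicates of 1 group, the order of genes close in fold enrichment is not resolved. The means of Erg at 7.28, Runx1 at 6.53 and 6.27, Meis1 at 5.92 and Fli1 at 5.43 overlapped in their replicate values from each to the next, although both values of Erg were above both of Fli1. Both replicates of these 5 sites exceeded both of every site of Gata2, Tal1, Lyl1, Lmo2 and Etv6.

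**Figure D2:**
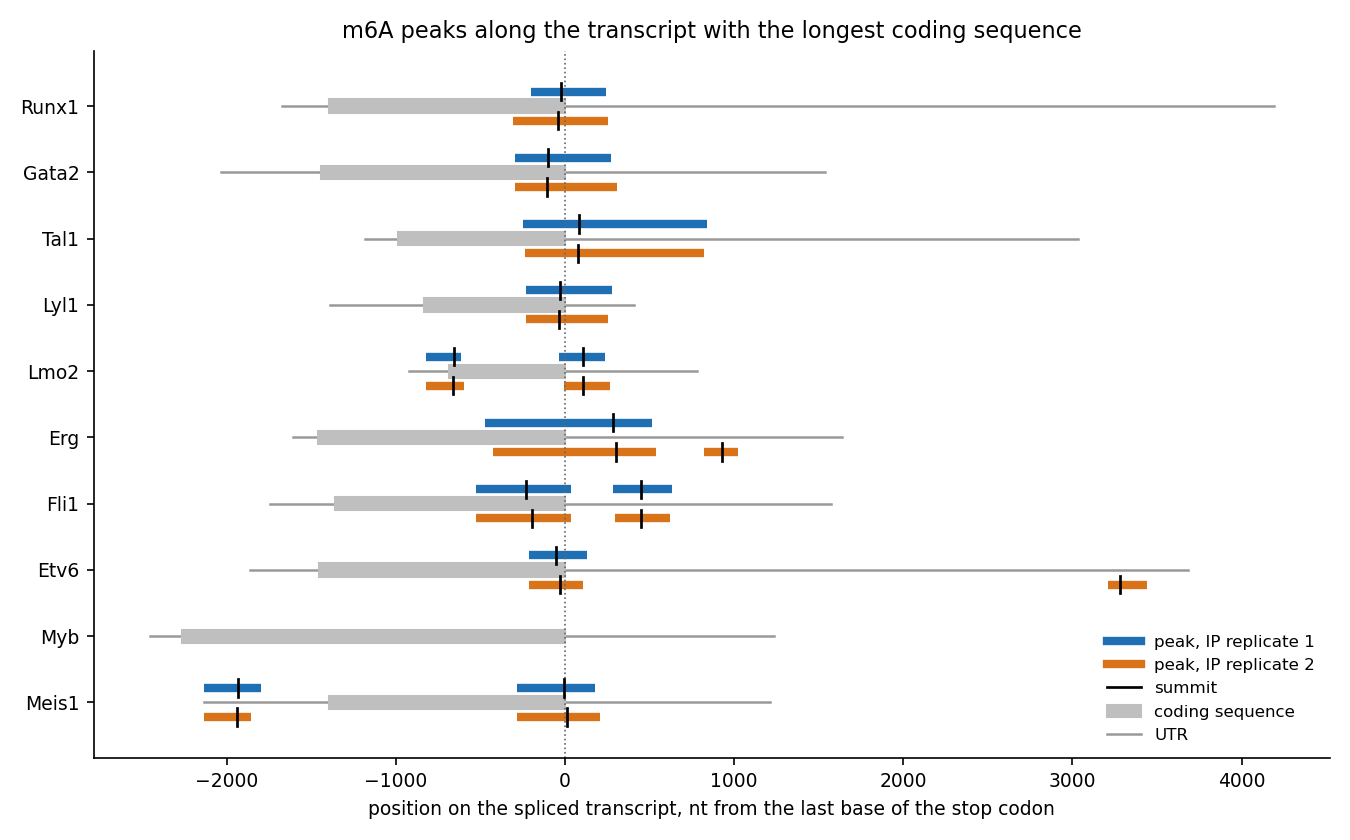
Peaks of the set along the spliced transcript with the longest coding sequence, in nt from the last base of the stop codon, with the coding sequence as a grey box, untranslated regions as a line, peaks of IP replicate 1 in blue above and of replicate 2 in orange below, each clipped to the exon of its summit and with the summit as a black tick. Of 9 genes with peaks, 7 have a summit within 200 nt of the stop codon in both replicates. The 5′ UTR peaks of Runx1 are not drawn, since they lie in exons of other transcripts.

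The peaks of the set lay mostly in last exons and near stop codons. All 9 genes with peaks had a site in the last exon, as 10 of the 13 shared sites did. The other 3 were the 5′ UTR sites of Runx1 and Meis1 and the start codon site of Lmo2. On the chosen transcripts, 12 summits of replicate 1 and 14 of replicate 2 could be placed. Within 200 nt of the stop codon lay 7 of 12 (58.3%, 95% interval 27.7% to 84.8%) and 8 of 14 (57.1%, 28.9% to 82.3%), a mean of 57.7% ± 0.842 (SD, n = 2). Of all 21286 placed summits of both replicates, 30.2% did. The intervals of the set reached from just below that share upwards. In last exons lay 83.3% (51.6% to 97.9%) and 85.7% (57.2% to 98.2%), against 61.3% of all placed summits. The last exons of the 10 genes had a median length of 1969 nt, against 1126 nt over all protein-coding genes, and the part of that length in the share was not tested. Runx1, Gata2, Tal1, Lyl1, Lmo2, Etv6 and Meis1 had a summit in the stop codon window in both replicates. Fli1 had one in replicate 2 and lay just outside in replicate 1, and Erg was outside in both. Coding sequence more than 200 nt from a start or stop codon held 1 of 12 summits of the set in replicate 1 (8.33%, 0.211% to 38.5%) and 0 of 14 in replicate 2 (upper limit 23.2%), against 34.0% of all placed summits. The interval of replicate 1 includes that share and that of replicate 2 does not, but the replicates differ here by 1 summit. It is that of the Fli1 coding site, at -229 nt in replicate 1 and inside the stop codon window at -195 nt in replicate 2. The intervals cover counting error only and take summits as independent, although some genes had more than 1.

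**Figure D3:**
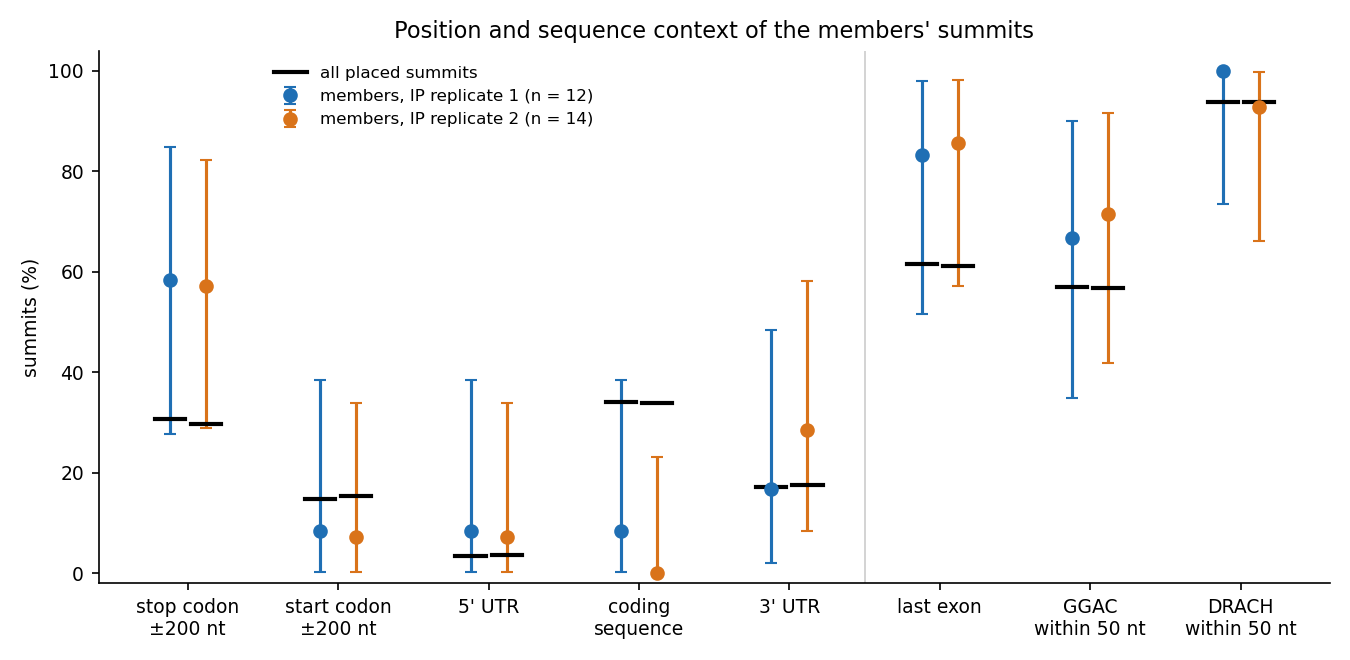
Share of summits (%) in each region of the transcript, in the last exon, and with GGAC or DRACH within 50 nt, for the set (blue and orange points for IP replicates 1 and 2, n = 12 and 14, with exact 95% intervals) and for all placed summits (black bars). The set is above all placed summits at the stop codon, at 58.3% and 57.1% against 30.2%, with intervals that include it.

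The motif stood close to most summits. Of the 13 sites found in both replicates, 9 had GGAC within 50 nt of the summit in both replicates, in 8 genes. At the Erg site it lay 56 nt away in replicate 1 and 37 nt in replicate 2. The remaining 3, the stop codon site of Runx1, the start codon site of Lmo2 and the coding site of Fli1, had none within that distance in either replicate, and all 13 had DRACH in the sense direction (D any base but C, R a purine, H any base but G). The absence of GGAC from such a window says only that these letters are not in it. Over placed summits, GGAC was within 50 nt of 66.7% and 71.4% in the set (95% intervals 34.9% to 90.1% and 41.9% to 91.6%), against 56.8% of all placed summits. DRACH, which contains most copies of GGAC, was near 25 of 26, against 93.9% of all. The exonic bases under the peaks held 6.03 and 6.07 copies of GGACH per kb, against 5.25 and 5.16 under all placed peaks, while the whole transcripts of the 10 genes held 3.77 per kb. The difference from all peaks is small, and the motif does not mark which adenosine was methylated.

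Fold enrichment was lower where the background was higher, within the set and over all peaks. Over the 13 shared sites, mean fold enrichment and mean expected reads had a Spearman correlation of -0.90. The same relation over all exonic peaks was -0.78 in replicate 1 and -0.81 in replicate 2. These are descriptions, since the background is the denominator of the fold enrichment. In replicate 1 the median fold enrichment of exonic peaks was 6.94 at up to 2 expected reads and 1.73 between 80 and 120. The corresponding medians of replicate 2 were 8.11 and 1.73. Few peaks anywhere had more than 200 IP reads at the summit, 22 in replicate 1 and 19 in replicate 2, with a maximum of 317 and 299. How reads at the same position were handled in calling is not given in the sources used here, and its part in these values was not tested. The fold enrichment therefore does not rank these genes by the share of their transcripts that carried m6A.

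Set beside exonic peaks of like background, in ranges of expected reads chosen after the values had been seen, the order of the genes was different. Lyl1, whose fold enrichment exceeded that of 38.4% and 33.6% of all exonic peaks, exceeded 95.6% of those with 40 to 60 expected reads in each replicate, where the median was 2.60 and 2.55. Erg exceeded 98.1% and 87.0% of exonic peaks with 10 to 20 expected reads. In that range the Runx1 sites exceeded 74.5% and 95.2% in the 5′ UTR and 67.5% and 94.5% at the stop codon. The coding site of Fli1 exceeded 88.0% and 83.7% of peaks in its ranges. These 5 sites thus lay in the upper part of their range in each replicate. Tal1, at 51.4% and 57.0%, and the 3′ UTR site of Lmo2, at 52.7% and 63.0%, were near the middle, so that their low fold enrichment was that of most exonic peaks with as much background. Gata2, at 48.5% and 37.8%, and the start codon site of Lmo2, at 32.2% and 28.5%, were in the middle or below. Etv6, at 38.9% and 64.0%, and the stop codon site of Meis1, at 45.9% and 69.8%, lay on either side of the middle. The replicates of Etv6, of Gata2 and of the start codon site of Lmo2 fell in different ranges, with 20 to 40 and with 40 to 60 expected reads. For Etv6 the range medians were 3.42 and 2.55, so that its lower fold enrichment, in replicate 2, had the higher percentage. The 5′ UTR site of Meis1, among the highest by fold enrichment, was also on either side of the middle, at 69.9% and 21.9%. Its expected reads, 5.24 and 4.83, were close but lay on either side of a range limit at 5, with range medians of 5.45 and 6.96. The 3′ UTR site of Fli1 was just below the middle, at 46.5% and 41.6%. Both Fli1 sites also had their replicates in different ranges. How much the range limits add to such differences was not tested. In all, 8 of 13 peaks of the set in replicate 1 and 9 of 16 in replicate 2 were above the median of their range.

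**Figure D4:**
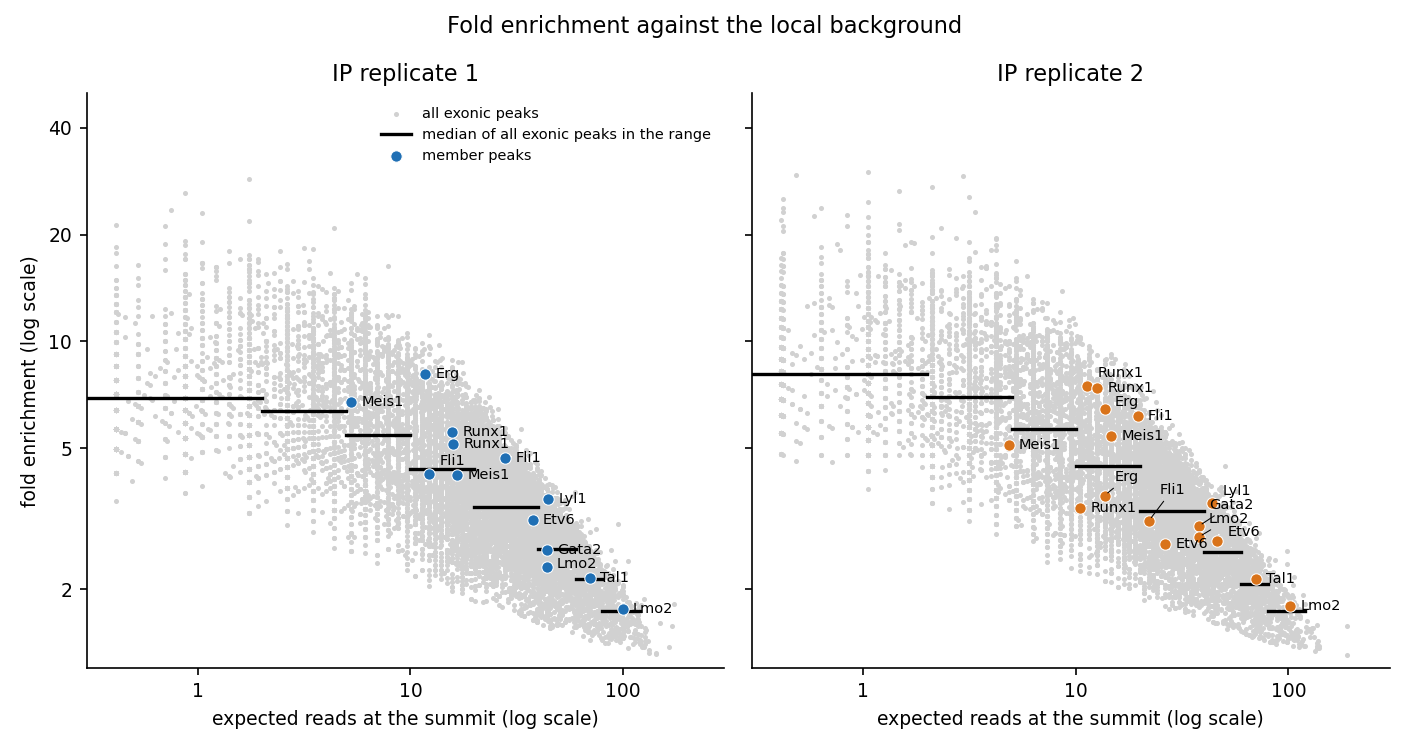
Fold enrichment against expected reads at the summit (both axes on a log scale) in IP replicate 1 (left) and 2 (right), for all exonic peaks (grey), their median in ranges of expected reads (black bars) and the peaks of the set (coloured, named). Fold enrichment falls as background rises. Lyl1 exceeded 95.6% of exonic peaks in its range in each replicate. The upper Erg point exceeded 98.1% in replicate 1 and 87.0% in replicate 2. In replicate 2, 2 Runx1 sites were higher in the same range, at 95.2% and 94.5%. Tal1 and the right-hand Lmo2 point lie close to the bars.

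Summits were also sought in partners and relatives of the 10 factors. Of 46 such genes, 29 had an exonic summit in both replicates (63.0%, against 30.9% of protein-coding genes), 6 in 1 replicate and 11 in none. The list was chosen with earlier results of these data known, and transcript length and RNA level were not taken into account. The share is thus a description of this list only. Of 21 partners and cofactors, 14 had one in both. Among them were Ldb1, which binds Lmo2 in the Tal1 complex, the E proteins Tcf3, Tcf4 and Tcf12, and the corepressors Cbfa2t2 and Cbfa2t3. The others were Zfpm1, Hoxa9, Pbx2, Ssbp2, Ssbp3, Rcor1, Crebbp and Ep300. Ssbp4, Hoxa7 and Kdm1a were among those with one in a single replicate, and Cbfb, the subunit that strengthens DNA binding by Runx1, Pbx3 and Hoxa10 had none. Of 19 paralogues, Runx3, Gata3, Lmo4, Mybl2, Ets1, Ets2, Gabpa, Elf1, Elf2 and Etv3 had a summit in both replicates, 10 in all. Runx2 and Elf4 had one in a single replicate, and Gata1, Tal2, Lmo1, Mybl1, Fev, Meis2 and Meis3 none. Of the 6 other stem cell factors, Gfi1, Gfi1b, Hlf, Hhex and Prdm16 had summits in both and Mecom in neither. Family members thus differed in their calls, since Runx1 and Runx3 had summits in both replicates and Runx2 did not, and Mybl2 did and Myb and Mybl1 had none. Some calls rested on few IP reads, 7 for Runx2 in replicate 1 and 6 and 10 for Gata3. The part of RNA level in these differences was not tested.

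The highest mean fold enrichment at the strongest peak in this list was 10.8 ± 6.72 for the acetyltransferase Ep300, 6.05 and 15.6 in the replicates. Its strongest peaks were at different sites in the 2 replicates, on 116 and 48 IP reads, so that this mean and SD are not those of 1 site. Prdm16, a factor that maintains stem cells, followed with 9.94 and 11.2 (mean 10.6 ± 0.895) and Cbfa2t2 with 7.58 and 9.94 (mean 8.76 ± 1.67). These rested on 35 and 39 IP reads at Prdm16 and on 86 and 70 at Cbfa2t2. Erg at 7.28 was the highest of the 10 factors.

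Markers of the cells that the enrichment could hold were read in the same way. Of the stem and progenitor markers, Cd34 had a summit in both replicates, and Kit and Flt3 had none, so that the peak lists do not show the marker used for enrichment. Of the erythroid markers, Klf1, Epor, Hbb-bt and Hba-a1 had summits in both and Gata1 had none. Their strongest peaks had low fold enrichment, 2.56 and 2.28 at Klf1 and 1.73 and 1.79 at Epor. The values were 1.95 and 1.74 at Hbb-bt and 2.11 and 1.91 at Hba-a1. These 4 genes had between 164 and 200 IP reads there. Of the hepatocyte markers, Apoa1 had a summit in both, on 42 and 54 IP reads, Afp in replicate 1 only, on 7, and Alb and Ttr had none. Of the macrophage markers, Csf1r had a summit in both, and Adgre1 and Cd68 had none. The shares with a summit in both were thus 4 of 5 for erythroid, 1 of 4 for stem and progenitor, 1 of 4 for hepatocyte and 1 of 3 for macrophage markers, the last 3 near the 30.9% of all protein-coding genes. Which cells the peaks of the 10 genes came from was not tested.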

How the data were processed

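m6A meRIP-seq had been performed on 2 IP and 2 input samples of c-Kit-enriched foetal liver cells. Per the labels and the methods, the authors aligned reads to GRCm38 with HISAT2 and called peaks in each IP replicate with MACS2 (2.1.1.20160309, nomodel). The deposited lists hold, for each peak, the fold enrichment at the summit (a ratio of IP signal to local background, with 1 added to each), MACS2's p-value and q-value, both as −log10, a score that is 10 times the −log10 q cut to a whole number, and the summit offset. The q threshold and the control library are not given in the sources used here, and inputs have no peak list here.

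Exons were those of the GENCODE M21 basic set, and sequence was GRCm38. Summits were placed on the transcript with the longest coding sequence where it was the only gene there. IP reads and expected reads (background, scaled to the IP library) were computed from the deposited fold enrichment and −log10 p, and 100% of peaks in each replicate matched a whole read number within 0.001 in −log10 p, against 0.838% and 0.565% on a shifted grid. This step was tested on simulated data. Read depth per library is not known from the lists. Peaks overlapping by 1 bp or more were called shared. The groups were the labels' IP and input. With 1 condition no test was run, and values were set beside those of all exonic peaks or protein-coding genes. Alternatives covered the annotation, overlap, minimum q, fold enrichment and reads, windows, motif and each replicate alone. All 10 genes were named, and of the partner list the 3 with the highest mean fold enrichment at the strongest peak were given with values. Some genes of the partner and marker lists are not reported here by name. Members and lists were chosen with earlier results of these data known. Python 3.11.15, numpy 2.4.6, pandas 2.3.3, scipy 1.17.1 and matplotlib 3.10.9 were used.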

Additional observations from a re-analysis of the deposited data

Results flagged for a closer look

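The comparisons of exonic peaks left out the intronic peaks of Lyl1, Erg and Fli1. In Lyl1 the peak lay in intron 3, with a fold enrichment of 2.69 in replicate 1 and 2.47 in replicate 2 on 82 and 78 IP reads. In Erg it lay in intron 2, with 5.94 and 5.71 on 62 and 53 IP reads. In Fli1 it lay in intron 1, with 7.47 and 13.7 on 13 and 22 IP reads against fewer than 1 expected read in each replicate. GGAC was within 50 nt of the summit on the sense strand in both replicates for Erg and Fli1, and in neither for Lyl1. The peak lists carry no strand, and none of these summits lay in an exon of any gene in the annotation.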

How the results depend on the processing

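Counts over genes rested on 2 libraries, and the depth of the inputs is not known. A minimum fold enrichment of 4 left 4 of the 10 genes with a summit in both replicates (Runx1, Erg, Fli1 and Meis1), 13 exonic peaks of the set, 12 of the 46 partner and paralogue genes and 16.9% of protein-coding genes. The genes lost from the set, Gata2, Tal1, Lyl1, Lmo2 and Etv6, had mean expected reads between 40.8 and 101 at their shared sites. Those of the 4 genes kept were between 5.04 and 23.7. The part of the background in this loss, in the set or over all genes, was not tested. The share of summits near the stop codon was 69.6% within 400 nt and 38.7% within 100 nt (42.6% and 18.4% of all placed summits). GGAC was near 42.9% of the set's summits within 25 nt and 81.0% within 100 nt (36.3% and 76.4% of all), and DRACH near 96.4% within 50 nt. With either replicate alone the values were 9 and 9 genes, 33.5% to 34.4% of protein-coding genes, 31 to 33 partner genes, a median fold enrichment of 3.43 to 4.21, 57.1% to 58.3% near the stop codon and 66.7% to 71.4% with GGAC. In Meis1 the strongest peak by fold enrichment averaged 6.06 and that by −log10 q 4.80. The other alternatives, 43 of 52 for these shares and counts and 26 of 27 for single genes, moved values by less than the limits set for a change. No paired analysis was possible because the inputs, which share replicate numbers with the IP samples, have no peak list and no test was run.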

Other observations

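Further peaks within 1000 nt of the 10 genes but outside their exons were called in replicate 2 only. Lmo2 had one inside the gene but outside every annotated exon, with a fold enrichment of 7.83 on 49 IP reads against 5.34 expected, the most reads among them. Runx1 had 2 in introns, with 4.29 on 17 IP reads and 3.81 on 23. Etv6 had one 383 nt upstream of the gene, with 4.31 on 8 IP reads. Upstream of Myb a peak was called in both replicates, with GGAC within 50 nt on the sense strand in each.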
